A study of Mus musculus with 3 samples.

Results

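The 8 genes described here, Rgs13, Bcl6, Mybl1, S1pr2, Gcet2, Fas, Mef2b and Basp1, are genes that B cells of the germinal center are known to use. They were chosen by name, with Rgs13 as the starting point, and every gene probe of the array that carries 1 of the 8 names was taken. This gave 9 probes of the 55679 on the array, since Mef2b has 2 probes and the others have 1 each. All 8 genes were detected, and they make up 8 of the 22851 gene names well above background on at least 1 array. Each of the 8 had a probe well above background on all 3 arrays. The set was put together from the signals of these same 3 arrays, so the values below describe the genes and test nothing.

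RNA from islet graft-bearing spleens of C57BL/6J mice was measured at 3 times, with 1 one-color array for each time. Every recipient had been made diabetic with streptozotocin, a toxin of beta cells, and had then been given 25 syngeneic islets by puncture of the spleen and 100 more under the capsule of the kidney. The spleen was taken immediately afterwards (day 0), on day 2, or on day 139, and the day 139 recipients had lost the graft-bearing kidney on day 100. The question put to these arrays was which genes change in the spleen as the islets engraft. The sample characteristics name the capsular graft for day 139 alone, whereas the treatment text and the methods give it for all 3, which is followed here. The methods describe male mice and give 1 age range for all experiments, not an age for each array, and the number of mice behind an array is not given. No untreated or sham-operated spleen was analysed here, so time, age, recovery from streptozotocin, nephrectomy and engraftment cannot be told apart. With 1 array a day there is no spread between mice, and no test was possible.

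A germinal center is the site within a B cell follicle where B cells that have met antigen divide, mutate their antibody genes and compete for help from T cells. BCL6 is the transcription factor that this state depends on, and MEF2B is an activator that acts on the Bcl6 gene. S1PR2 and RGS13 act on G protein signaling, the first as a receptor that holds B cells in the follicle, the second as an inhibitor of chemokine receptor signals. In the spleen these structures lie in the white pulp and are rare in animals that have met no antigen.

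In each spleen the signal was read from probes of 60 bases. A signal below is the background-subtracted brightness of a probe, given after quantile normalization, which gives the 3 arrays the same distribution. The error after ± is the scanner software's own estimate for that probe on that array, and it covers neither labeling nor differences between mice. A ratio is 1 day's normalized signal over another's. A gene is said to have risen at a ratio of at least 1.5 and to have fallen at 0.66 or less, the ratio limits in the study's methods. Signals of different probes cannot be set against each other, so each gene is compared with itself across days.

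The probes of the 8 genes are shown first, because 1 probe carries the whole measurement for all but Mef2b. The first 30 bases of each are given 5′ to 3′, in lower case, for the strand of the gene, with their place on the mm9 build as the array annotation has it. Which exon or untranslated region they fall in was not determined, since no mm9 gene models were used here.
Rgs13 (chr1:145985854-145985883, minus strand): gacaccttattgtaccttactatgaacatt
Bcl6 (chr16:23965190-23965219, minus strand): cagggtttggctgtgtctaaactgcattag
Mef2b, first probe (chr8:72691191-72691220, plus strand): aagaggttcctccagcctccacagagttcc
Mef2b, second probe (chr8:72689021-72689050, plus strand): tgccctgatcatcttcaacagtgcgcaacg
Mybl1 (chr1:9659164-9659193, minus strand): gccagtgttgtttcttgccattacagctaa
S1pr2 (chr9:20770759-20770788, minus strand): tcctgtggagaaatagaaaaatccaatacg
Gcet2 (chr16:45622921-45622950, plus strand): gagctgtatttgtttgcaattcattaataa
Fas (chr19:34402164-34402193, plus strand): gaagaccttccattgatggacagttctttt
Basp1 (chr15:25294158-25294187, minus strand): agcgacgcggccccggcggcttcagactct
The full probes of Rgs13, Mybl1, S1pr2, Gcet2 and Fas are each 35% G and C, that of Bcl6 40%, both of Mef2b 55%, and that of Basp1 73.3%. Gcet2 is the array's older name for the gene that RefSeq now calls Gcsam. In the RefSeq annotation of GRCm38.p6, Bcl6 overlaps the predicted gene Gm31527 and Mef2b overlaps Gm45929. The other 6 genes overlap no other gene there.

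Rgs13 and Mef2b were the members that differed most between day 139 and the earlier days, and Basp1 was the one that did not differ beyond its scanner error. Of the 8 genes, 5 rose from day 0 to day 139 (Rgs13, Bcl6, Mybl1, S1pr2 and Mef2b), where 13.6% of all detected genes did. From day 2 to day 139, 7 of the 8 rose (all but Basp1), against 12.9% of all genes. None of the 8 fell in either comparison, where 13.7% and 13.5% of all genes fell. These counts use the contrasts that the set was chosen from, and both comparisons share the day 139 array, so nothing is read from them. From day 0 to day 2, 1 of the 8 rose (S1pr2) and none fell, against 9.96% and 9.9% of all genes. The median log2 ratio of the 8 genes was 1.14 for day 139 over day 0, 1.00 for day 139 over day 2 and -0.16 for day 2 over day 0. Over all detected genes these medians were -0.00, -0.03 and 0.02.

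**Figure D1:**
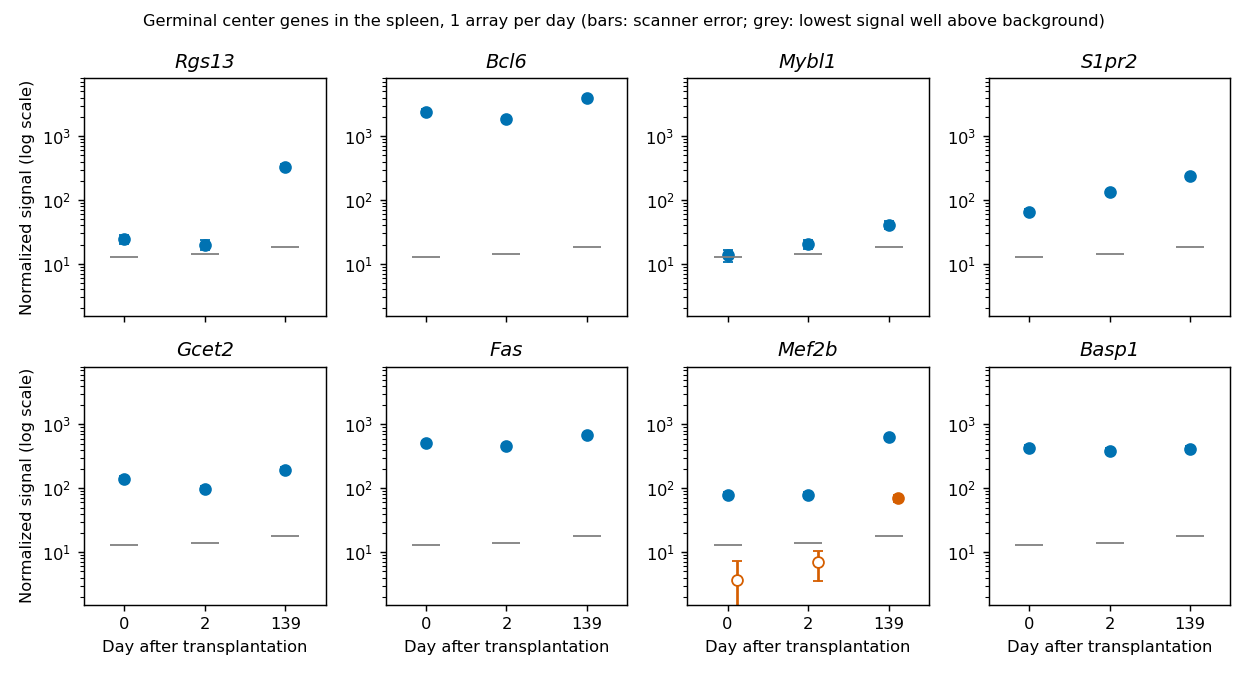
Normalized signal (vertical axis, log scale) of the 8 genes on day 0, day 2 and day 139, 1 array each, with days spaced evenly. Bars are the scanner error, grey marks the lowest signal well above background on each array, orange is the second Mef2b probe, and open points are not well above background. Rgs13 and the first Mef2b probe lie close together on days 0 and 2 and far higher on day 139, while Basp1 lies between 389 and 431 throughout.

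Rgs13, the regulator of G protein signaling, had the largest ratios of the 8 genes after quantile normalization, and stood second to Mef2b with the normexp background correction described below. It had a normalized signal of 24.4 ± 3.94 on day 0, 20.0 ± 3.74 on day 2 and 334 ± 33.7 on day 139. Days 0 and 2 lay within 1 scanner error of each other, and day 139 stood far above both. Before normalization the signals were 26.4 ± 4.25, 20.6 ± 3.86 and 304 ± 30.7. The probe was dim on the early days, although it was well above background on all 3 arrays. The lowest signals called well above background were 12.9, 14.0 and 18.2 on the arrays of days 0, 2 and 139. Rgs13 rose 13.7-fold over day 0 (3.77 ± 0.27 on the log2 scale) and 16.7-fold over day 2 (4.06 ± 0.31). In order of ratio it was gene 103 of 22851 over day 0 and gene 71 over day 2.

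The size of this ratio depends on how background is treated. With a normexp background correction, which adds an offset of 50 and so pulls dim signals together, the ratios were 4.68 and 4.89, below the 4.94 and 5.07 of Mef2b. With scaling to the spike-in controls they were 17.6 and 23.3. Rgs13 passed the 1.5 limit over both earlier days in all 10 settings that give its ratio.

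The promoter of Rgs13 is shown because Rgs13 and Mef2b moved farthest, and is set beside those of Mef2b and Bcl6. Each is the 250 bases before a RefSeq transcription start on GRCm38.p6, 5′ to 3′ on the strand of the gene, with capitals marking a motif match. The motifs searched on both strands were the octamer ATGCAAAT, bound by OCT factors, the E-box CAGCTG, bound by E proteins, and the STAT motif TTCNNNGAA. They occur in 1.6%, 13% and 7.02% of the 32851 upstream windows of this length in the table. No match shown here overlaps another.
Rgs13 (chr1:144177373-144177622, minus strand): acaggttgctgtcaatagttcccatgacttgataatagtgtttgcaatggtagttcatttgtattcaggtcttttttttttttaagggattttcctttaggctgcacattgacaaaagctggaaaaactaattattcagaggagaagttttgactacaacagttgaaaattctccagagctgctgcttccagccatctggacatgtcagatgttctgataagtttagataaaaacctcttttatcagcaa
Mef2b (chr8:70152511-70152760, plus strand): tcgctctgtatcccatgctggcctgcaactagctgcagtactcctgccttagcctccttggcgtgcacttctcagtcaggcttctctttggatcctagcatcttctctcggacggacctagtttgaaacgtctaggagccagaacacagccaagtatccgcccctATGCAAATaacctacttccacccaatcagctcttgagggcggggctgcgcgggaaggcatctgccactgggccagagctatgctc
Bcl6, second start site (chr16:23981284-23981533, minus strand): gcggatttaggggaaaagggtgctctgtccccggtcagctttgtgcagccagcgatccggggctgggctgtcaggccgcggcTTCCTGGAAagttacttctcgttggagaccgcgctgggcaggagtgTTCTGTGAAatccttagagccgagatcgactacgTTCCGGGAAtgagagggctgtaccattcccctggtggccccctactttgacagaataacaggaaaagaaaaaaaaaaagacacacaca
The Rgs13 window holds none of the 3 motifs and is 36.0% G and C, below the lower quartile of all windows (45.2%, median 52.4%). The Mef2b window (56.0%) holds the octamer 85 bases before the start. The second Bcl6 window (54.8%) holds the STAT motif 3 times, 168, 122 and 88 bases before the start. The window of the first Bcl6 start site (58.4%) holds it once, 118 bases before, and that of Fas once, 93 bases before. The windows of S1pr2, Gcet2 and Basp1 hold none of the motifs, and Mybl1 has no window because the table has no entry for it. A match describes the letters and is not evidence of a bound site.

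Of the transcription factors, Mef2b rose most. Its first probe had signals of 79.4 ± 8.38, 78.4 ± 8.30 and 626 ± 62.7 on days 0, 2 and 139. Days 0 and 2 did not differ beyond the scanner error, and day 139 was 7.88-fold over day 0 and 7.99-fold over day 2. The second probe, which the array assigns to another transcript of the gene, read 3.63, 7.04 and 70.1. Only its day 139 signal was well above background, so its rise is a bound of at least 5.41-fold over day 0 and at least 4.99-fold over day 2. A bound sets the day 139 signal against the lowest signal called well above background on the earlier array, or the probe's own signal there if that is higher. Both Mef2b probes were thus highest on day 139.

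Bcl6, the repressor that defines the germinal center B cell and is also used by follicular helper T cells, was measured brightly and changed less. Its signals were 2419 ± 242, 1834 ± 183 and 3910 ± 391. Day 2 lay below day 0 by less than 2 scanner errors, and day 139 lay above both by more. The ratios were 1.62 over day 0 and 2.13 over day 2. Mybl1, which encodes the MYB family factor A-MYB, read 13.7 ± 3.03, 20.3 ± 3.52 and 41.1 ± 5.66, a rise of 3.00-fold and 2.02-fold. Its day 0 signal lay just over the lowest signal called well above background, and with the normexp correction its ratios were 1.44 and 1.30, under the limit.

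S1pr2, the sphingosine-1-phosphate receptor, was the only member past the limit by day 2. Its signals were 64.4 ± 7.28, 131 ± 13.5 and 235 ± 23.9, each step larger than 2 scanner errors. The gene rose 2.04-fold from day 0 to day 2, 1.79-fold from day 2 to day 139, and 3.65-fold from day 0 to day 139. Gcet2, whose product is a signaling adaptor of germinal center B cells, had signals of 142 ± 14.5, 99.1 ± 10.3 and 196 ± 19.9. It was lowest on day 2, at 0.699 of day 0, and rose 1.98-fold from day 2 to day 139, while its ratio over day 0 was 1.38 and did not pass the limit.

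Fas, the death receptor that germinal center B cells carry and that many other cells carry as well, is the only member read by 2 spots of 1 probe. It had signals of 512 ± 36.3, 453 ± 32.2 and 689 ± 48.9. Its ratio of 1.52 over day 2 just passed the limit, and its ratio of 1.35 over day 0 did not. Basp1, which encodes a membrane-bound protein best known from neurons, read 431 ± 43.2, 389 ± 39.1 and 418 ± 42.0. Its ratios of 0.969 over day 0 and 1.07 over day 2 were within 1 scanner error of no difference. The direction of the Basp1 ratio over day 0 turned with scaling to the spike-in controls, where it was 1.27.

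**Figure D2:**
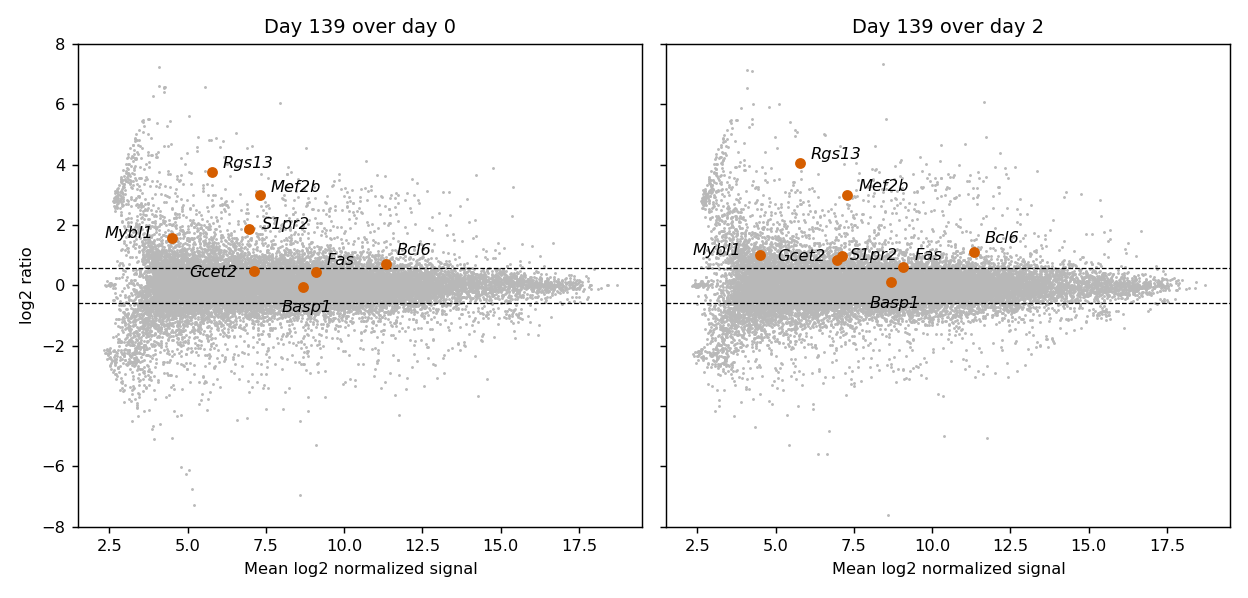
log2 ratio (vertical axis) against the mean log2 normalized signal over the 3 arrays (horizontal axis) for the 22851 detected genes (grey) and the 8 germinal center genes (orange), with dashed lines at ratios of 1.5 and 0.66. Rgs13 and Mef2b stand above most genes of like signal in both panels, and Basp1 lies between the dashed lines.

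Ratios of dim probes scatter more, whichever gene they read. The log2 ratios of day 139 over day 0 had an SD of 0.99 among probes with a mean signal from 15 to 80, 0.71 from 80 to 500 and 0.60 from 500 upwards. The study's methods ask for a Z-score of at least 2 as well as the ratio, and give no formula. Taken as the log2 ratio over the SD of the 1000 probes nearest in mean signal, it was 5.37 for Rgs13, 4.79 for Mef2b and 2.54 for S1pr2 over day 0. These 3 genes passed both criteria over day 0, where 3.18% of all genes did in that direction and 2.31% passed downward. Over day 2 the 2 genes Rgs13 (5.59) and Mef2b (4.66) passed, against 3.08% of all genes upward and 1.78% downward. Between days 0 and 2 no member passed in either direction, against 2.15% upward and 2.83% downward.

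B cell genes as a whole were higher on day 139, so the members were set beside them. All 14 general B cell genes, such as Cd79a, Ms4a1 and Blk, had ratios above 1 over both earlier days, and 12 of the 14 rose in each comparison. Their median log2 ratio was 1.07 over day 0 and 1.09 over day 2, and the highest over day 0 was Blk, a B cell kinase, at 3.85-fold. The summed signal of the list was 60963 on day 0, 63299 on day 2 and 127775 on day 139. Rgs13 and Mef2b had higher ratios than all 14 genes in both comparisons. Rgs13 exceeded the median of the list 6.51-fold over day 0 and 7.88-fold over day 2, and Mef2b 3.76-fold in both. With the normexp correction both genes still exceeded all 14, but the excess over the median was 2.36-fold and 2.51-fold for Rgs13 and 2.49-fold and 2.60-fold for Mef2b. S1pr2 and Mybl1 exceeded 13 of the 14 over day 0 and 5 over day 2, and with that correction S1pr2 exceeded 10 and 2 and Mybl1 3 and 1. Bcl6 exceeded 3 and 7 of the 14, Gcet2 1 and 5, Fas 1 and 2, and Basp1 none in either. In whole spleen, more cells of a type and more RNA per cell cannot be told apart.

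The members took several courses over the days. Rgs13 and Mef2b were level on days 0 and 2 and high on day 139. S1pr2 was stepwise higher, and the Mybl1 signals had the same order with a first step within 2 scanner errors. Bcl6, Gcet2 and Fas were lowest on day 2 and highest on day 139, although for Bcl6 and Fas the step between days 0 and 2 was within 2 errors. Basp1 stayed within 1 error between neighbors in its order, with its highest signal on day 0. Likeness to Rgs13 was measured as the root mean square difference of the log2 signals, each gene centered on its own mean over the 3 arrays. Mef2b was the nearest member, at 0.45, and the other 6 lay between 1.28 (Mybl1) and 1.84 (Basp1).

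Among the 19789 other genes well above background on all 3 arrays, the 10 nearest to Rgs13 by that measure held 3 immunoglobulin variable segments, 3 long intergenic noncoding RNA regions, 2 predicted genes and 1 unnamed transcript. The 1 named gene was Tiam1, an activator of the small GTPase RAC, with signals of 132, 134 and 1799 and a difference of 0.15 from Rgs13. With 3 points per gene such likeness is a weak description.

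The other genes that germinal center B cells use did not all move one way. Of 18 listed, 17 had a probe and were detected, 10 rose over day 0 and 10 over day 2, and 1 fell over day 0. Their median log2 ratio was 0.63 over day 0 and 0.72 over day 2.

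Among listed germinal center genes well above background on all 3 arrays, Serpina9, a serine protease inhibitor named for this cell, had the highest ratio over day 0, with signals of 23.2, 21.2 and 66.4 (2.86-fold). Neil1, a base excision repair enzyme, rose 2.70-fold (340, 409 and 919) and Eaf2, an elongation factor partner, 2.27-fold (3654, 3547 and 8281). Efnb1, an ephrin, had the lowest ratio, 0.631, with signals of 1861, 1506 and 1174, and Lmo2, a transcription cofactor, read 8255, 8269 and 8077. Of the repair genes used in class switching and mutation, none of the 14 rose over day 0 and 2 fell, with Exo1 lowest at 0.620 and Lig4 highest at 1.24. Over day 2, 2 rose and 1 fell, and their median log2 ratios were -0.03 over day 0 and -0.18 over day 2, which turned to 0.39 and 0.27 with scaling to the spike-in controls.

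**Figure D3:**
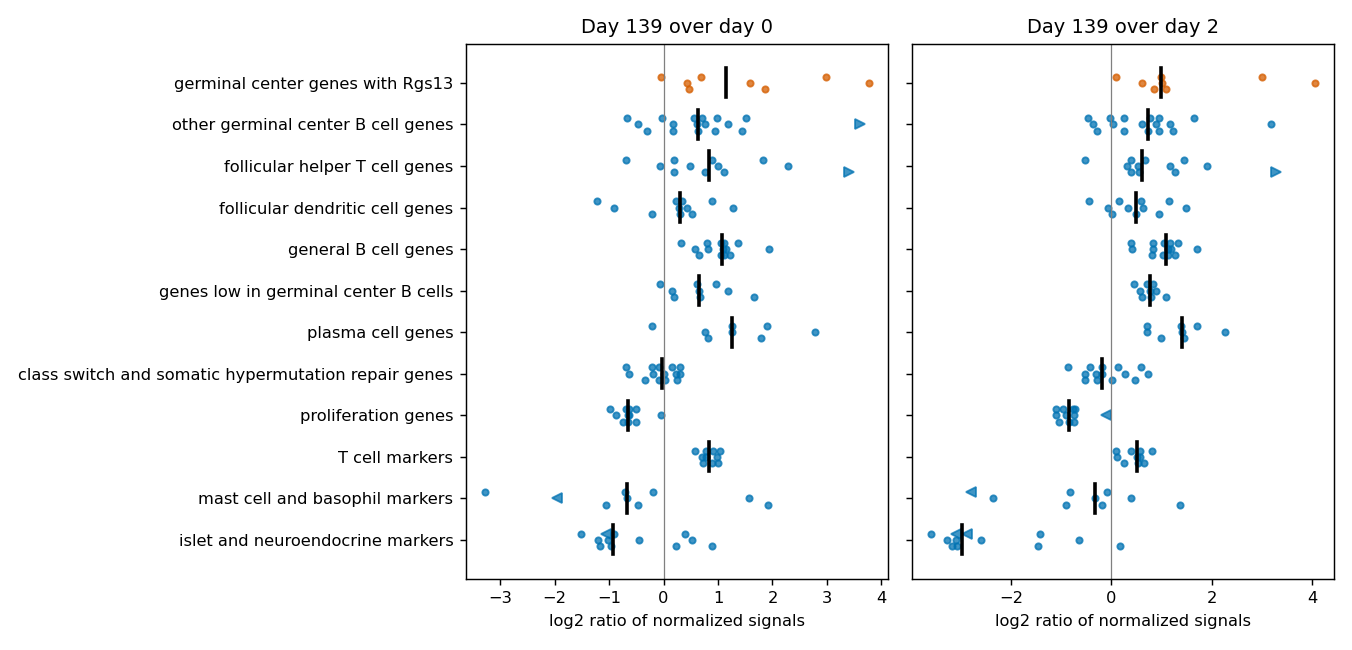
log2 ratio (horizontal axis) of every detected gene in 12 lists, for day 139 over day 0 (left) and over day 2 (right). Black bars are list medians, and triangles are bounds for genes that 1 of the compared arrays did not measure above background, pointing the way the value could go. Of the germinal center genes with Rgs13 (orange), only Rgs13 and Mef2b lie right of every general B cell gene. The medians of these lists are 1.14 and 1.07 over day 0, and 1.00 and 1.09 over day 2. The proliferation genes lie left of 0.

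The cells that meet B cells in the germinal center were followed by their own genes. Of the 12 detected follicular helper T cell genes, 7 rose and 1 fell over day 0, and 6 rose over day 2, with median log2 ratios of 0.83 and 0.62. The 10 general T cell markers had medians of 0.83 and 0.52, all 10 rose over day 0 and 2 over day 2, and Cxcr5 is counted among the general B cell genes too. Il21, the cytokine these cells give to B cells, was well above background on day 139 alone, where its signal was 137, so it rose at least 10.6-fold over day 0 and at least 9.75-fold over day 2. Ascl2, a transcription factor of these cells, rose 4.84-fold (29.4, 38.0 and 142), and Pdcd1, the inhibitory receptor PD-1, 3.53-fold (156, 200 and 551). Maf had the lowest ratio, 0.621, and Cd40lg was not well above background on any array. Of 11 follicular dendritic cell genes 2 rose and 2 fell over day 0, and 5 rose and none fell over day 2. Their ratios over day 0 ran from 0.427 (Tnfrsf1a) to 2.42 (Serpina1e), and Cxcl13, the chemokine that draws B cells into follicles, read 2025, 1118 and 2478.

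Genes that B cells are known to turn down in the germinal center were higher on day 139 as well. Of 9 such genes 6 rose over day 0 and 7 over day 2, with median log2 ratios of 0.64 and 0.77, led by Fcer2a at 3.18-fold. Of 8 plasma cell genes 7 rose over day 0 and all 8 over day 2, with medians of 1.26 and 1.40. Tnfrsf17, the survival receptor of plasma cells, rose 6.88-fold over day 0 (40.0, 57.6 and 275). Xbp1, a factor of secretory cells, had the lowest ratio, 0.859.

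Dividing cells are a feature of germinal centers, but proliferation genes of the whole spleen were lower on day 139. None of 11 proliferation genes rose, while 8 fell over day 0 and 10 over day 2, with median log2 ratios of -0.65 and -0.83. Mki67 had signals of 30689.6, 27728 and 15556, a ratio of 0.507 over day 0. Red cell precursors, which divide in the mouse spleen, moved in the same direction. Of 8 erythroid markers 4 fell over each earlier day, with medians of -0.59 and -0.66, and all were well above background. The part of the red cell precursors in the proliferation values was not tested.

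Genes linked to each member's role were also followed. Of 13 genes that BCL6 is known to repress, 4 rose and 3 fell over day 0, and 3 rose and 1 fell over day 2, with ratios over day 0 from 0.279 for Cdkn1a, the cell cycle inhibitor p21, to 2.40 for Irf4. None of 7 BCL6 corepressor genes rose or fell in either comparison, and their ratios over day 0 ran from 0.735 (Hdac2) to 1.15 (Bcor). Of 8 other RGS family genes 2 rose and 1 fell over day 0, with Rgs14 highest at 1.88 and Rgs16 lowest at 0.647, and 2 rose over day 2. Of 11 genes of the sphingosine-1-phosphate and G13 pathway in which S1PR2 acts, 3 rose and 1 fell over each earlier day. The 3 were the receptor genes S1pr3 (2.05 over day 0), S1pr4 (2.02) and S1pr5 (1.94), and Sphk1, a kinase that makes the lipid, fell to 0.466.

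Of the 5 other MYB and MEF2 family genes Mef2c rose over day 0 (1.69) and Mybl2 fell (0.644), and over day 2 none rose and 1 fell. Of 9 genes of the Fas death pathway none rose over either earlier day, and Fasl, the ligand of the receptor, fell over day 0, at 0.589. The relatives of Basp1 that were detected, Marcks and Marcksl1, had ratios of 0.837 and 1.05 over day 0, and Gap43 was not well above background on any array. The medians of the corepressors, Fas pathway and MYB and MEF2 genes lay between -0.34 and -0.03 over day 0 and between -0.12 and 0.01 over day 2, and all were above 0 with scaling to the spike-in controls.

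Some members are also used by cells outside the B lineage, and markers of those cells are given beside them. Rgs13 is known from mast cells, and of 9 mast cell and basophil markers 2 rose and 5 fell over day 0, with a median log2 ratio of -0.67. Cpa3, a mast cell protease, read 64.7, 204 and 39.8, and Cma1 was not well above background on day 139. The 2 that rose over day 0 were Fcer1a and the basophil protease Mcpt8. Fcer1a read 18.3, 41.4 and 54.5 (2.97-fold), and Mcpt8 read 27.1, 39.9 and 103 (3.79-fold). Mybl1 is known from testis, and of 6 testis markers 4 were detected, with signals of at most 48.9 on any array. Bcl6, Fas and Mybl1 are also known from T cells, and the summed signal of the 10 T cell markers was 18457, 25448 and 33542 on days 0, 2 and 139. The part of these cells in the member values was not tested.

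Islet and neuroendocrine markers went the other way, with 1 of 12 rising and 7 falling over day 0 and 11 falling over day 2 (medians of -0.93 and -2.97). On day 2, 9 of the 12 had risen over day 0, where the ratio of Basp1 was 0.903. Of 8 macrophage markers 1 rose and 2 fell over each earlier day, and of 8 neutrophil markers 1 rose and 2 fell over day 0 and 1 rose over day 2. Their medians over day 0 were -0.33 and 0.24, and the first turned to 0.06 with scaling to the spike-in controls. Of the B cell, erythroid and macrophage markers that define the labelled tissue, every detected one was well above background on all 3 arrays.

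**Figure D4:**
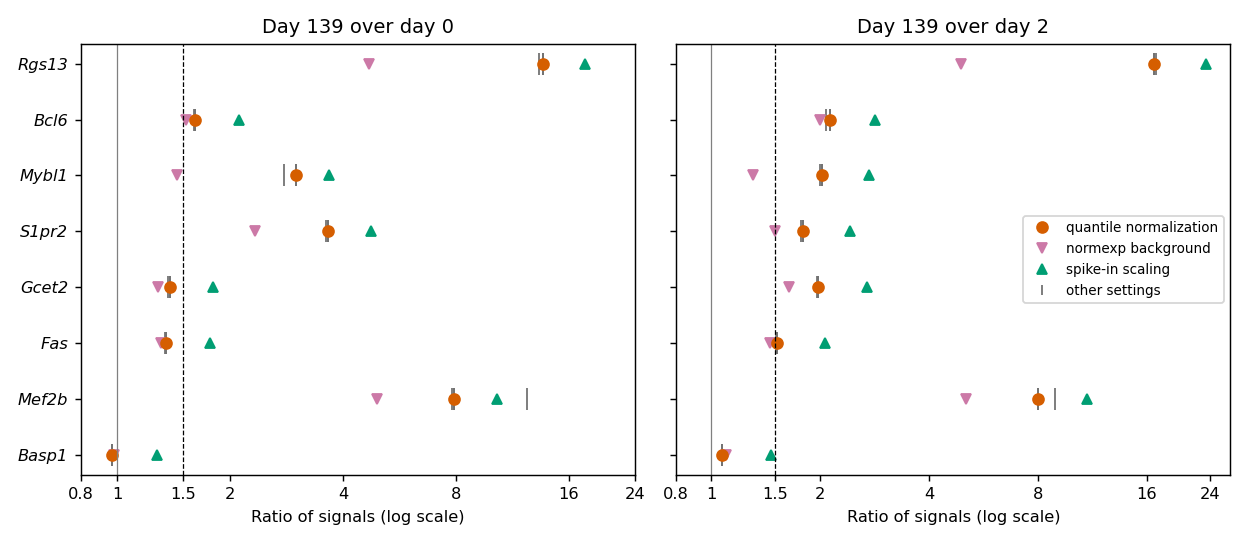
Ratio of signals (horizontal axis, log scale) of the 8 genes for day 139 over day 0 (left) and over day 2 (right), under quantile normalization (orange circle) and 9 other settings. The dashed line marks 1.5. The normexp correction gives the lowest ratio of Rgs13 and spike-in scaling the highest, and all Rgs13, Mef2b and Bcl6 points lie right of the dashed line. Several of the other settings could not change a member's ratio and fall on its circle.

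How the arrays are scaled moves all genes together. The 8 spike-in probes of the day 139 array were at 65.6% of their day 0 signal before normalization, so scaling to them moved the median log2 ratio of all genes from -0.00 to 0.38 over day 0 and from -0.03 to 0.40 over day 2. Under it 32.8% of all genes rose over day 0 and 34.8% over day 2, and Gcet2 (1.80) and Fas (1.77) passed the limit over day 0. Rgs13 then stood at 17.6 and Mef2b at 10.3 over day 0.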

How the data were processed

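Total spleen RNA of 3 times, 1 array each, was labeled with Cy3 and hybridized to Agilent SurePrint G3 Mouse 8x60K arrays. The authors deposited the scanner output, in which intensity is background-subtracted and spatially detrended (Feature Extraction 10.7.1.1 per the file headers, 9.5.1.1 per the labels), and a table of quantile-normalized intensity values. The processed signals were used here. Control and outlier-flagged spots were left out, spots of a probe averaged, the 55679 probes quantile normalized over 3 arrays with a floor of 1, and a probe was called detected when well above background on at least 1 array. The brightest detected probe stands for a gene. No gene spot was saturated. The deposited table differed from these values by a median of at most 0.00025 on the log2 scale.

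The members, lists and naming rule (all members, the highest and lowest gene of each list, the 10 genes nearest to Rgs13) were chosen with earlier results of these data known. The lists, some of which share genes, came from general knowledge. Genes named besides these were chosen after their values were seen, and some listed genes are not reported here. Symbols follow the array, and promoter sequences and overlaps come from RefSeq tables of GRCm38.p6. Normalization and ratio calls were run on simulated arrays whose ratios scatter less than those measured here. Detection, bounds and the choice of probe were not tested that way. Alternatives were normexp (limma 3.58.1 in R 4.3.3), 75th percentile and spike-in scaling, the deposited values, a higher floor, other detection and probe rules, and other call limits. The number of arrays limits the precision. Python 3.11.15, numpy 2.4.6 and pandas 2.3.3 were used.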

Additional observations from a re-analysis of the deposited data

How the results depend on the processing

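The counts of members past the limit kept within 1.5 times of their value in 61 recalculations under the 11 alternatives and moved further in 5. Many of the 61 could not move, so their number does not measure stability. The higher floor and the other detection rules left every member's ratio unchanged, because each was well above background on all 3 arrays. The counts of fallen members were 0 from the start, and stricter limits could not raise them. For day 139 over day 0, 3 members in place of 5 rose when the Z-score was also required. The share of all genes that rose went from 13.6% to 3.18% with it. For day 139 over day 2, 4 in place of 7 rose with the normexp correction (Mybl1 1.30, S1pr2, just under 1.5, and Fas 1.45 fell short). With the Z-score 2 rose, and with ratio limits of 2 and 0.5 there were 4. The shares of all genes under these settings were 6.37%, 3.08% and 6.34%, in place of 12.9%. For day 2 over day 0, 0 in place of 1 rose with the Z-score, where 2.15% in place of 9.96% of all genes did. No called ratio of a member changed direction. Of the members' ratios, 188 recalculated values moved by less than the scanner error and 28 by more, among them both Rgs13 ratios under normexp and spike-in scaling. Most of the 188 come from settings that could hardly move a ratio. These are the floor and detection rules, the probe median for all members but Mef2b, the deposited values and the kept outlier spots. For Mef2b the median over its 2 probes gave 12.3 over day 0, which uses a day 0 signal of the second probe that was not well above background and is no measured fold. Over the settings, the ratio over day 0 ran from 4.68 to 17.6 for Rgs13, 4.94 to 10.3 for Mef2b (that median left out), 2.33 to 4.75 for S1pr2, 1.44 to 3.67 for Mybl1, 1.53 to 2.11 for Bcl6, 1.29 to 1.80 for Gcet2, 1.31 to 1.77 for Fas and 0.967 to 1.27 for Basp1. Signal over background limits Rgs13 and Mybl1 most, since both were dim on days 0 and 2. The cause of the differences between settings was not tested. No paired analysis was possible because each day has 1 array. Leaving out an array was not possible for the same reason.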
